A study of Mus musculus with 15 samples.

Results

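The 39 genes described here encode factors that license, start and carry out the copying of DNA, supply its nucleotides, rebuild chromatin behind the fork and drive cells into S phase. They were taken by gene symbol. All 39 were found among the 23352 genes of the deposited table, and all 39 reached the minimum for a test, which was 1 FPKM or more in 3 or more of the 15 libraries and was met by 11945 genes. FPKM is a fragment count scaled by transcript length and by library depth.

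The libraries came from C2C12, a line of mouse myoblasts, the dividing precursors of skeletal muscle, which leave the cell cycle and fuse into myotubes when they differentiate. MLX is a transcription factor that binds DNA together with partners such as MondoA and ChREBP, and the study set raised MLX activity against lowered MLX activity. Every group had been given a construct, by lentivirus per the labels' protocols, and each of the 5 groups had 3 libraries. MLX-WT cells carried wild-type MLX, MLX-DN cells a dominant-negative form and MLX shRNA cells a short hairpin RNA against Mlx. The controls were a vector with only green fluorescent protein (titled MCS, GFP control below) and a non-targeting hairpin (NT shRNA). GFP control was used as the control of MLX-WT and MLX-DN, and NT shRNA as that of MLX shRNA. The labels give neither the promoters of the constructs, nor the time after transduction, nor whether the 3 libraries of a group were separate cultures. Each p-value thus measures the scatter among these libraries, possibly technical, and all groups derive from 1 cell line.

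Depth was 37.1 to 82.7 M reads per library, as estimated from the spacing of low FPKM values, and within groups the correlation between libraries was 0.998 to 0.999. Mlx itself was at 16.6 to 17.6 FPKM in GFP control, 16.3 to 17.9 in NT shRNA, 632 to 655 in MLX-WT, 384 to 399.9 in MLX-DN and 2.80 to 3.95 in MLX shRNA. The MLX-WT and MLX-DN values may include reads from the constructs. Of 10 myoblast markers, 8 were at 1 FPKM or more in every library, as were all 19 myotube markers. Pax7 and Msc were under 1 FPKM in GFP control, and Msc also in MLX-WT and in MLX-DN replicates 2 and 3. Myog, a gene switched on as myoblasts differentiate, was at 442 to 718 FPKM, and Myh3, the embryonic myosin heavy chain gene, at 478 to 1022. The libraries labelled myoblasts thus held RNA of differentiating muscle cells in every group. No library stood apart from its group.

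Replication origins are licensed in G1, when the origin recognition complex, CDC6 and CDT1 load the ring-shaped MCM2-7 helicase onto DNA, and geminin later blocks CDT1 so that no origin is licensed again. In S phase the kinase CDC7 and cyclin-dependent kinases turn the loaded rings into active helicases by adding CDC45 and the GINS complex, after which primase, polymerases and the sliding clamp PCNA copy both strands. Many of these genes are known targets of the E2F factors, which are held back by the retinoblastoma family when muscle precursors leave the cell cycle to differentiate.

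Since E2F sites are known in the promoters of such genes, promoter letters were searched for the members. RefSeq promoters (build GRCm38.p6, 250 bases before to 50 after the gene's start) were matched for 32 of the 39 members. The E2F-type words TTTCCCGC or TTTGGCGC, on either strand, were found in 1 or more listed promoters of 9 of the 32, against 1.8% of all 27025 genes with a promoter and 3.5% of the 8685 tested genes with one. With TTTGGCGG added the count was 12 of 32, against 2.39% and 4.48%. The CCAAT word was found in 18 of 32 (41.1% and 43.1%), the E-box CACGTG in 5 (8.09% and 12.1%), and TTTGAA, a core of the cell cycle homology region, in 4 (20.2% and 13.8%). CACGTG, which is also the core of the element that MLX complexes bind, was in the promoters of Chaf1a, Fen1, Lig1, Rpa1 and Tyms. These matches describe letters in a window of 300 bases and are not measured binding sites. The 6 promoters that follow are those with TTTCCCGC or TTTGGCGC and the lowest p in MLX shRNA against NT shRNA, and they are shown so that the letters counted can be seen in helicase, polymerase and licensing genes described below. Each is written 5′ to 3′ on the gene's own strand, and capitals mark these words or their reverse complements.
Mcm6, chr1:128359656-128359955, minus strand: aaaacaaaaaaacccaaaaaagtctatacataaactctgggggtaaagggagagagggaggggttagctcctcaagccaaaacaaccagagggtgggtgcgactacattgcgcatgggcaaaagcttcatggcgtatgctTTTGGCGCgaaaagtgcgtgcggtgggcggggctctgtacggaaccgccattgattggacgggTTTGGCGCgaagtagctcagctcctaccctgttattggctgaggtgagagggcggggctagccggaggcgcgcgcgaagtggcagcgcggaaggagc
Mcm3, chr1:20820263-20820562, minus strand: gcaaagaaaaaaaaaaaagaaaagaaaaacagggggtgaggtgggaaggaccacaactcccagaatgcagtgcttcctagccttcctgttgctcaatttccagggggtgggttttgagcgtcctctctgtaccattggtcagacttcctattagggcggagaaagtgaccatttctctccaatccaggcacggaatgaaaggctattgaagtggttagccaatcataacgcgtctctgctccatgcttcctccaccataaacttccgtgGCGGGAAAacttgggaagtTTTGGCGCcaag
Mcm5, chr8:75109259-75109558, plus strand: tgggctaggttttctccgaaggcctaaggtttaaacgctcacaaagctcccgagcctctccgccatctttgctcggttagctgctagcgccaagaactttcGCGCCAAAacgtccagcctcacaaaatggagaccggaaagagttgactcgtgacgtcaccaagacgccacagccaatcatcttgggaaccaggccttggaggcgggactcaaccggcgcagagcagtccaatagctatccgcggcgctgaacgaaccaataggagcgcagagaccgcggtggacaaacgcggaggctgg
Pola1, chrX:93632106-93632405, minus strand: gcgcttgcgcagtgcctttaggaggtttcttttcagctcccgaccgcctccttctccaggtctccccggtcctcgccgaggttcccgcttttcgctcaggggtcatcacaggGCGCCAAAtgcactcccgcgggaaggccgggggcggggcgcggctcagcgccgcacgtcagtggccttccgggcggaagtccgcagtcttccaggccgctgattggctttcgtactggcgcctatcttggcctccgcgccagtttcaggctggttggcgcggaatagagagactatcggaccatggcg
Pold1, chr7:44548766-44549065, minus strand: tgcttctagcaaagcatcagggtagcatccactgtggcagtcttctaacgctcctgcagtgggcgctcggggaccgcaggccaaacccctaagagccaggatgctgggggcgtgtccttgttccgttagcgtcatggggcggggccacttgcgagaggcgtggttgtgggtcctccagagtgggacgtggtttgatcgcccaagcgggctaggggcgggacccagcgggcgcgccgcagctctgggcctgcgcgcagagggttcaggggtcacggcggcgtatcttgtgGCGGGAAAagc
Cdc6, chr11:98907901-98908200, plus strand: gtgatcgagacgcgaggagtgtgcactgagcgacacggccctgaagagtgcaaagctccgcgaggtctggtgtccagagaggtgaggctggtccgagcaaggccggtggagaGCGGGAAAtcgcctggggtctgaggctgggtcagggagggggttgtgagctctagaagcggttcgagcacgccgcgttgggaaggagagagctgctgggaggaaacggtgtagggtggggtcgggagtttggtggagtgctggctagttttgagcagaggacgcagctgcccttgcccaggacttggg

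Replication genes were lower in both groups meant to lose MLX activity, and they were also lower with wild-type MLX. Relative to GFP control, the median level of the 39 genes was 80.5% in NT shRNA, 70.1% in MLX-WT, 52.5% in MLX shRNA and 46.8% in MLX-DN. The same medians over all tested genes were 99.9%, 95.6%, 98.1% and 93.0%. Summed over the 39 genes, FPKM was 789 to 797 in the GFP control libraries, 654 to 672 in NT shRNA, 609 to 620.4 in MLX-WT, 457.5 to 458.5 in MLX shRNA and 453 to 462 in MLX-DN. The summed levels of MLX shRNA and MLX-DN overlapped, and the other groups were separate from them and from each other. In bulk RNA, fewer cells in S phase and less RNA per cell cannot be told apart.

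**Figure D1:**
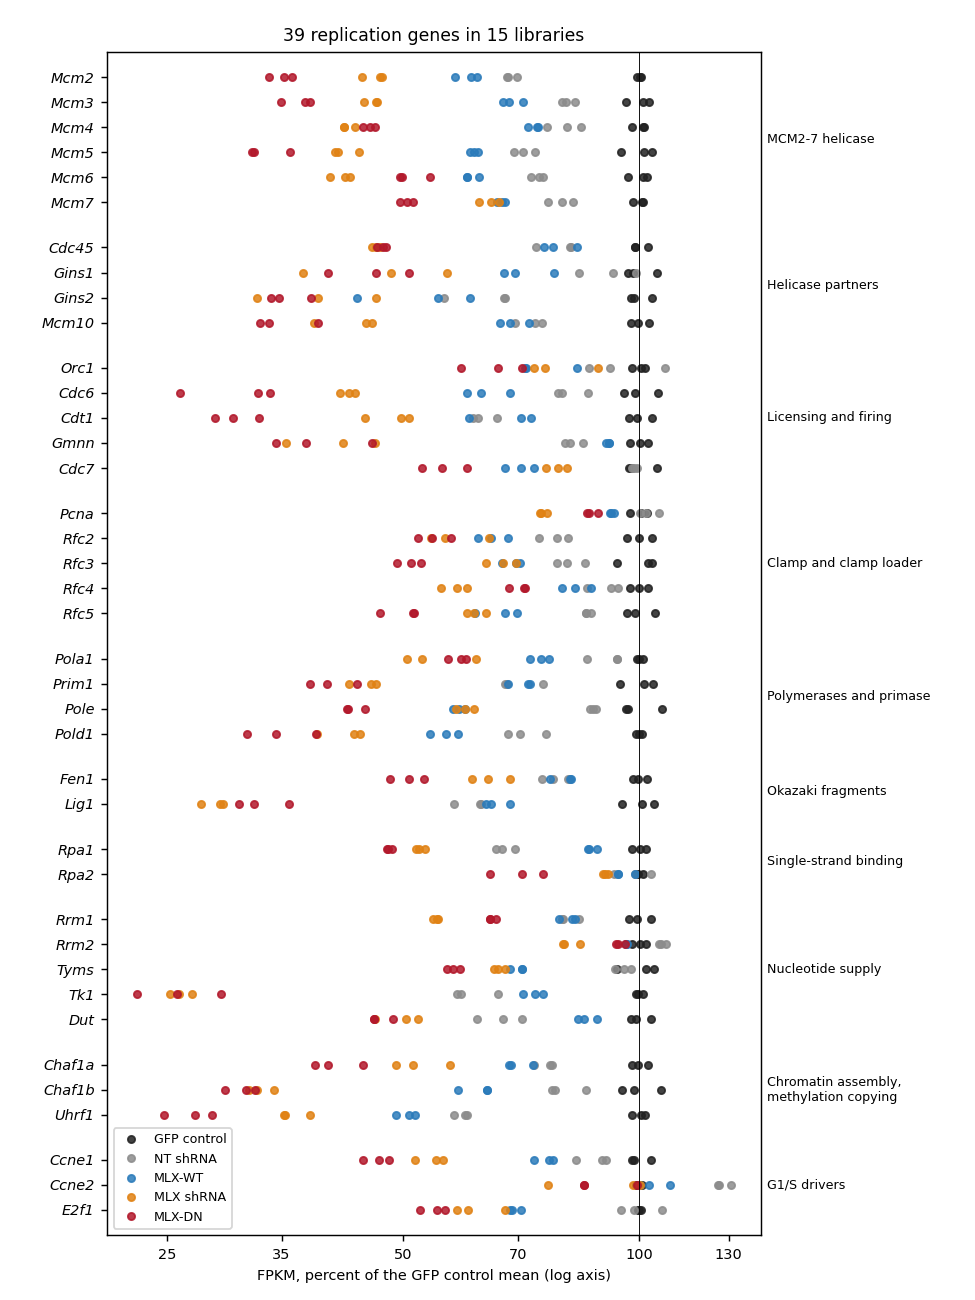
FPKM of each of the 39 genes in each of the 15 libraries (points, colored by group) as a percent of the gene's GFP control mean, on a log axis, with the genes in role order. The MLX-DN and MLX shRNA points lie to the left of all other points for 30 of 39 genes, and Tk1 reaches the lowest level, 26.0% of GFP control in both groups.

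The order of the group means took 7 forms over the 39 genes. In 19 of 39 the group means ran from GFP control down through NT shRNA, MLX-WT and MLX shRNA to MLX-DN, and in 7 more the order was the same but for MLX-WT above NT shRNA. How common these full orders were among all tested genes was not counted. GFP control had the highest mean for 36 members, where 32.6% of all tested genes had that pattern, and the exceptions were Pcna, Rrm2 and Ccne2, which were highest in NT shRNA. The lowest mean was MLX-DN for 30 members and MLX shRNA for 9, so that 1 of these groups was lowest for all 39, against 50% of tested genes. All 6 libraries of MLX-DN and MLX shRNA were below the other 9 libraries for 30 members, against 11.1% of tested genes. The 9 members outside that pattern were Ccne2, Cdc7, Gins2, Mcm7, Orc1, Pole, Rfc2, Rfc3 and Rfc5. Libraries of a group were close, with a median coefficient of variation over the members of 2.76% in GFP control to 4.98% in MLX-DN.

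Differences below are on the log2(FPKM + 2) scale of the deposited values, so that a value of -1 is a halving of FPKM + 2. Falls in FPKM itself are understated, most of all for weakly expressed genes. The differences were tested with limma on all 15 libraries, with Benjamini-Hochberg adjustment over all tested genes and a threshold of 0.05. Standard errors of the 39 genes were 0.0229 to 0.0901 in each comparison of 2 groups.

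With MLX-DN, 38 of 39 genes fell against GFP control and 0 rose, where 48.8% of tested genes fell and 32.6% rose. The median log2 difference was -0.86, against -0.08 over all tested genes, and 13 members were at -1 or below. In FPKM more members were at least 2-fold lower, since the median level of the 39 was 46.8% of GFP control. Rpa1, for example, was at 48.0%. Tk1 fell furthest (-1.70), then Uhrf1 (-1.56), Mcm5 (-1.37) and Mcm2 (-1.32). For 38 members all 3 MLX-DN libraries lay below all 3 GFP control libraries, a pattern of 49.9% of tested genes. The gene not called was Ccne2, at -0.12 (adjusted p = 0.0894). Rrm2 was called at only -0.08, and its difference was 0.01 once each library was centered on its median.

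With MLX shRNA, all 39 genes fell against NT shRNA, where 39.3% of tested genes fell and 30.8% rose. The median log2 difference was -0.50, against -0.02 over all tested genes, and only Tk1 was at -1 or below, at -1.04. Next on this scale came Gmnn (-0.83), Lig1 (-0.82) and Mcm4 (-0.78). In mean FPKM, Chaf1b, Tk1, Lig1 and Gmnn were each more than 2-fold lower. Chaf1b fell furthest in FPKM, to 40.96% of NT shRNA, and Tk1 was at 42.46%. All 3 MLX shRNA libraries were below all 3 NT shRNA libraries for 38 members (39.3% of tested genes), the exception being Orc1. The 2 smallest called differences, Rpa2 (-0.11) and Orc1 (-0.12), lost their call with median centering (adjusted p = 0.269 and 0.215). They were also lost with quantile normalization and without several single libraries. Ccne2 apart, the same 38 genes were lower with MLX-DN against GFP control and with MLX shRNA against NT shRNA, as were 23.1% of tested genes.

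With MLX-WT, 36 of 39 genes fell against GFP control and 0 rose, where 42.7% of tested genes fell and 27.6% rose. The median log2 difference was -0.40, against -0.05 over all tested genes, and no member was 2-fold lower. Uhrf1 was the lowest at -0.85, followed by Gins2 (-0.75), Mcm6 (-0.67) and Mcm2 (-0.66). Gmnn (-0.12), Rpa2 (-0.06) and Ccne2 (0.05) did not pass (adjusted p = 0.14, 0.228 and 0.531), and Rpa2 turned to 0.01 with median centering. Gmnn was called as lower when only the MLX-WT and GFP control libraries were fitted (limma adjusted p = 0.00217). Rrm2 was at -0.05 with an adjusted p of 0.0456, and this call was lost with median centering, where its difference was 0.01, and when any of 5 of the 6 libraries was left out on its own.

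**Figure D2:**
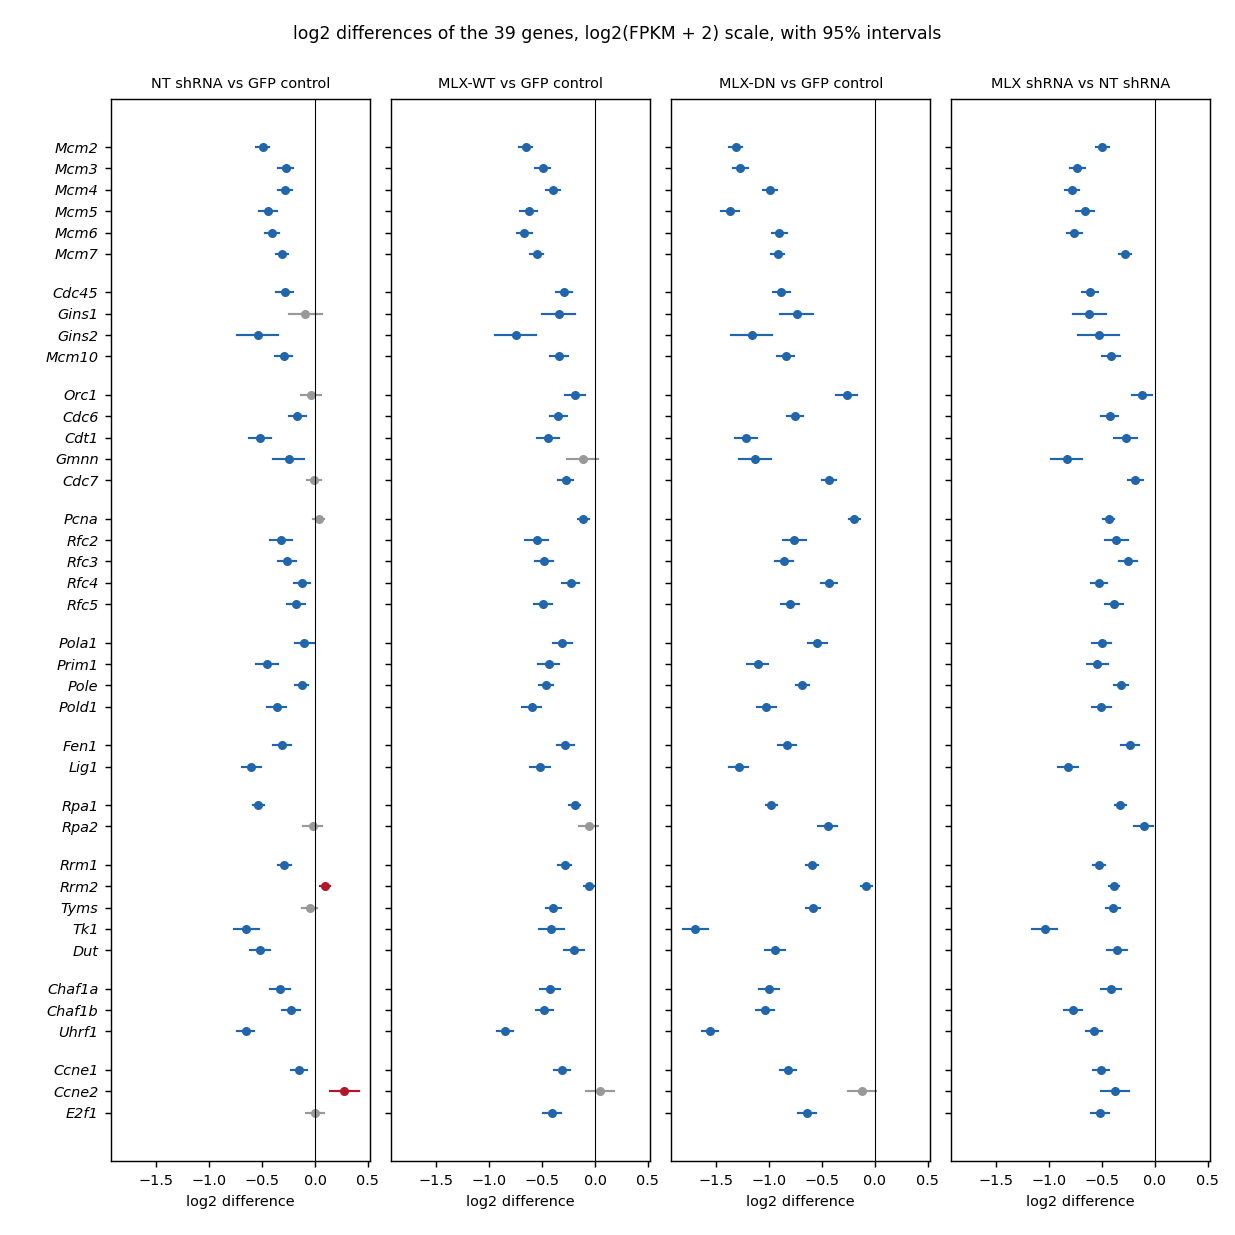
Log2 difference with its 95% interval for each of the 39 genes in 4 comparisons, in role order, on the log2(FPKM + 2) scale (blue: called lower, red: called higher, gray: not called). Blue points number 30, 36, 38 and 39 from the left panel to the right, and the 2 red points are Rrm2 and Ccne2 in NT shRNA against GFP control.

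The MCM2-7 genes encode the 6 subunits of the replicative helicase ring, and all 6 fell in each of these 3 comparisons. Their median log2 difference was -1.13 with MLX-DN, -0.70 with MLX shRNA and -0.59 with MLX-WT. Mcm2 was at 23.6, 23.6 and 23.3 FPKM in GFP control, 15.9, 16.4 and 16 in NT shRNA, 14.3, 14.6 and 13.7 in MLX-WT, 11, 10.4 and 11.1 in MLX shRNA and 8.48, 8.3 and 7.93 in MLX-DN. All 5 groups of Mcm2 were separate. Mcm3 ran in the same order, at 26.9, 26.4 and 25.2 FPKM in GFP control, 21.1, 21.7 and 20.9 in NT shRNA, 18.6, 17.5 and 17.9 in MLX-WT, 12.1, 11.7 and 12.1 in MLX shRNA and 9.97, 9.8 and 9.15 in MLX-DN, again with no overlap. Mcm5, from 22.2, 24.3 and 23.7 FPKM in GFP control through 16.7, 17.2 and 16.2 in NT shRNA, 14.4, 14.3 and 14.6 in MLX-WT and 9.67, 10.3 and 9.58 in MLX shRNA to 7.55, 8.4 and 7.51 in MLX-DN, had the same order with no overlap. Its difference of -1.37 (SE 0.0396) with MLX-DN was the largest of the 6.

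Mcm4 and Mcm6 were lowest in MLX shRNA instead. Mcm4 was at 20.2, 19.5 and 20.1 FPKM in GFP control, 15.2, 16.8 and 16.1 in NT shRNA, 14.4, 14.8 and 14.8 in MLX-WT, 9.05, 8.86 and 9.16 in MLX-DN and 8.37, 8.37 and 8.65 in MLX shRNA. Mcm6 was at 42.7, 40.9 and 43.2 FPKM in GFP control, 31.8, 31.4 and 30.8 in NT shRNA, 26.4, 25.5 and 25.5 in MLX-WT, 21, 22.9 and 21 in MLX-DN and 17.1, 17.8 and 18.1 in MLX shRNA. No groups overlapped in either gene. Mcm7 was at 40.2, 41.2 and 41.3 FPKM in GFP control, 32.6, 33.7 and 31.3 in NT shRNA, 27.6, 27.3 and 27 in MLX-WT, 25.5, 26.5 and 27.1 in MLX shRNA and 20.7, 21.1 and 20.3 in MLX-DN, and its MLX-WT and MLX shRNA libraries overlapped. Its difference with MLX shRNA (-0.28, SE 0.0282) was the smallest of the 6. It shares 10.8% of its exon bases with Ap4m1 on the other strand.

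**Figure D3:**
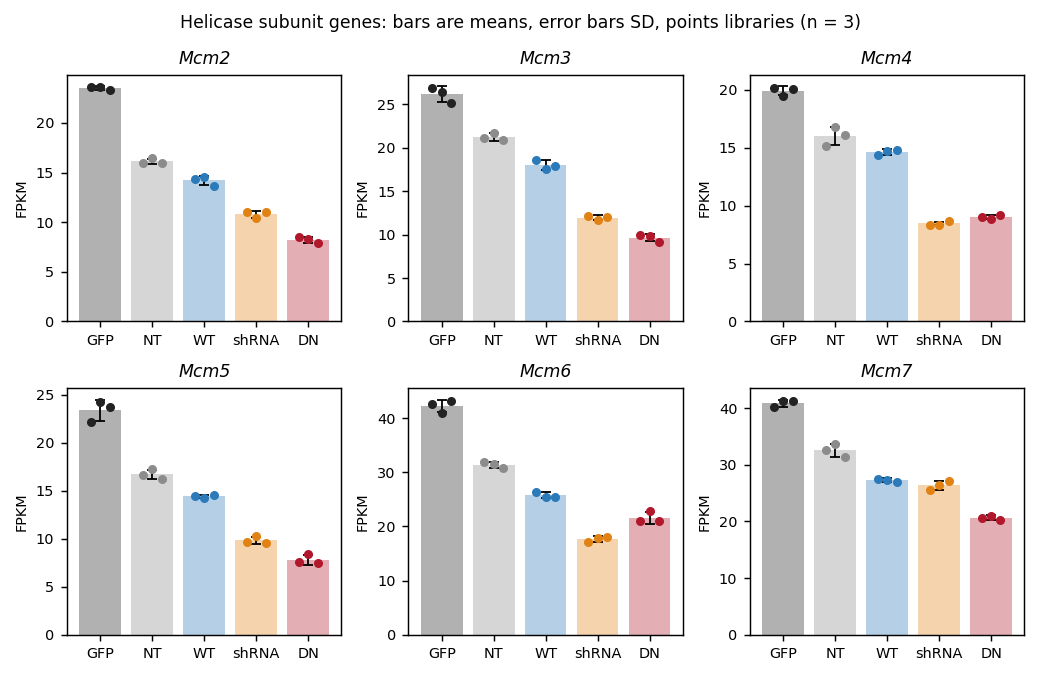
FPKM of the 6 helicase subunit genes in each library (points), with group means (bars) and SD (error bars, n = 3) for GFP control (GFP), NT shRNA (NT), MLX-WT (WT), MLX shRNA (shRNA) and MLX-DN (DN). GFP control is highest for all 6, MLX-DN is lowest for Mcm2, Mcm3, Mcm5 and Mcm7, and MLX shRNA is lowest for Mcm4 and Mcm6.

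The helicase partners Cdc45, Gins1, Gins2 and Mcm10 all fell with MLX-DN, MLX shRNA and MLX-WT against their own controls. Cdc45, whose product joins the ring when an origin fires, was at 12.7, 12.7 and 13.2 FPKM in GFP control, 10.5, 10.5 and 9.5 in NT shRNA and 9.73, 9.98 and 10.7 in MLX-WT, against 5.96, 6.06 and 6.13 in MLX-DN and 5.95, 5.87 and 6.01 in MLX shRNA. The last pair overlapped, as did NT shRNA and MLX-WT. Mcm10, which helps start unwinding, was at 4.2, 4.43 and 4.29 FPKM in GFP control, 3.17, 2.99 and 3.24 in NT shRNA, 2.95, 2.87 and 3.12 in MLX-WT, 1.93, 1.66 and 1.96 in MLX shRNA and 1.68, 1.42 and 1.45 in MLX-DN, with the same 2 overlaps.

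Gins1 and Gins2, for subunits of the GINS complex, had the widest standard errors of the 39. Gins1 was at 5.51, 5.43 and 5.91 FPKM in GFP control, 5.56, 4.7 and 5.2 in NT shRNA, 4.37, 3.89 and 3.77 in MLX-WT, 2.6, 2.25 and 2.86 in MLX-DN and 2.1, 3.2 and 2.71 in MLX shRNA, where its coefficient of variation of 20.7% was the highest of any member in that group. With 86 reads in its lowest library, Gins1 had the fewest reads of the 27 members with 1 known transcript length. The controls of Gins1 overlapped, as did MLX-DN and MLX shRNA. Gins2 was at 12.2, 12.2 and 12.9 FPKM in GFP control, 8.4, 7.02 and 8.36 in NT shRNA, 6.88, 5.44 and 7.56 in MLX-WT, 4.06, 4.85 and 5.75 in MLX shRNA and 4.33, 4.75 and 4.22 in MLX-DN. All its groups were below GFP control, and neighbors below that overlapped. Gins2 shares 70.7% of its exon bases with Gse1 on the other strand, so its values are uncertain to the extent that reads of Gse1 were counted for it.

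Of the licensing and firing genes, all 5 fell with MLX-DN and with MLX shRNA, and 4 fell with MLX-WT. Cdt1, the licensing factor that brings the MCM ring to origins, was at 9.04, 9.25 and 9.66 FPKM in GFP control, 6.78, 5.65 and 6.58 in MLX-WT and 5.81, 6.14 and 5.72 in NT shRNA. It was lower in MLX shRNA at 4.74, 4.62 and 4.16 and lower still in MLX-DN at 3.05, 2.82 and 2.68. Cdt1 thus fell by 1.22 on the log2 scale with MLX-DN but by 0.28 with MLX shRNA, whose own control was already low. Gmnn, the gene of the CDT1 inhibitor geminin, had the same order of group means as Cdt1. It was at 16.9, 17.3 and 16.4 FPKM in GFP control, 15.4, 15.4 and 15.3 in MLX-WT and 13.6, 13.8 and 14.3 in NT shRNA, and at 7.75, 7.06 and 5.97 in MLX shRNA and 5.81, 7.68 and 6.34 in MLX-DN. The MLX shRNA and MLX-DN libraries of Gmnn overlapped below all others, and its differences with MLX-DN and MLX shRNA were -1.14 (SE 0.0696) and -0.83 (SE 0.0696).

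Cdc6, which loads the helicase together with CDT1, was at 2.84, 2.75 and 3.04 FPKM in GFP control, 2.48, 2.29 and 2.27 in NT shRNA, 1.97, 1.81 and 1.74 in MLX-WT, 1.2, 1.251 and 1.23 in MLX shRNA and 0.747, 0.974 and 0.941 in MLX-DN. No groups of Cdc6 overlapped. Orc1, the subunit of the origin recognition complex whose level follows the cell cycle, had the smallest log2 difference of the 5 with MLX-DN and with MLX shRNA. It was at 1.93, 1.96 and 1.88 FPKM in GFP control, 1.76, 2.08 and 1.66 in NT shRNA, 1.71, 1.41 and 1.46 in MLX shRNA, 1.38, 1.6 and 1.38 in MLX-WT and 1.36, 1.14 and 1.27 in MLX-DN, and neighbors in this order overlapped except MLX-DN. It differed by -0.27 (SE 0.0446) with MLX-DN. Cdc7, the gene of the kinase that fires licensed origins, was at 2.86, 3.11 and 2.87 FPKM in GFP control and 2.9, 2.88 and 2.93 in NT shRNA, with no separation of these controls. It was at 2.38, 2.32 and 2.24 in MLX shRNA, 2.16, 1.99 and 2.08 in MLX-WT and 1.78, 1.56 and 1.65 in MLX-DN, so that wild-type MLX gave lower values than the hairpin. Orc1 also shares 11.9% of its exon bases with Gm12743 on the other strand. Orc1 and Cdc7 were near 2 to 3 FPKM in GFP control, where the added 2 shrinks log2 differences, and their MLX-DN means were 65.4% and 56.4% of GFP control.

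The sliding clamp gene Pcna was second only to Rrm2 in level, and its differences were small. It was at 91.8, 88.5 and 86.9 FPKM in NT shRNA, 88.7, 87.2 and 84.4 in GFP control, 80.6, 80 and 79.7 in MLX-WT, 74.9, 74.5 and 76.8 in MLX-DN and 65, 64.9 and 66.1 in MLX shRNA. The controls overlapped, and the other groups were each separate. Pcna differed by -0.20 (SE 0.0242) with MLX-DN and by -0.44 (SE 0.0242) with MLX shRNA, so that its order was opposite to that of most members. Reads of its processed pseudogenes Pcna-ps1 and Pcna-ps2 could be counted for Pcna.

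All 4 clamp loader genes measured here fell in the 3 comparisons. Rfc3 was at 22.5, 20.6 and 22.8 FPKM in GFP control, 17.3, 18.8 and 17.8 in NT shRNA, 15.3, 15.5 and 14.7 in MLX-WT, 14.7, 15.3 and 14 in MLX shRNA and 10.8, 11.6 and 11.2 in MLX-DN, with MLX-WT and MLX shRNA overlapping. Rfc5 had the same order and overlap, at 12.2, 11.5 and 11.3 FPKM in GFP control, 9.99, 10.1 and 9.99 in NT shRNA, 7.87, 7.21 and 8.16 in MLX-WT, 7.44, 7.19 and 7.04 in MLX shRNA and 5.46, 6.01 and 6.04 in MLX-DN. Rfc2, at 20, 19.3 and 20.8 FPKM in GFP control, 16.3, 15.7 and 14.9 in NT shRNA, 12.5, 13 and 13.6 in MLX-WT, 10.9, 12.9 and 11.3 in MLX shRNA and 10.9, 11.5 and 10.5 in MLX-DN, also overlapped between MLX shRNA and MLX-DN. Of the 4, Rfc4 was the one lowest in MLX shRNA, at 8.36, 7.75 and 8.11 FPKM against 9.46, 9.9 and 9.88 in MLX-DN, 11, 11.5 and 12 in MLX-WT, 13, 12.8 and 11.9 in NT shRNA and 13.9, 14.2 and 13.5 in GFP control, and NT shRNA and MLX-WT overlapped. Its difference was -0.53 (SE 0.0364) with MLX shRNA and -0.43 (SE 0.0364) with MLX-DN. Rfc2, Rfc4 and Rfc5 share 19.1%, 13.4% and 15.4% of their exon bases with Lat2, Eif4a2 and Wsb2 on the other strand.

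All 4 polymerase and primase genes fell with MLX-DN, MLX shRNA and MLX-WT. Prim1, the catalytic primase subunit gene, was at 19.4, 17.6 and 18.9 FPKM in GFP control, 12.7, 13.4 and 13.5 in MLX-WT, 12.6, 14 and 12.5 in NT shRNA, 8.57, 8.45 and 7.92 in MLX shRNA and 7.44, 7.07 and 8.11 in MLX-DN. Pold1, the catalytic subunit gene of the lagging strand polymerase delta, was at 7.11, 7.23 and 7.17 FPKM in GFP control, 4.87, 5.46 and 5.05 in NT shRNA, 3.88, 4.21 and 4.07 in MLX-WT, 3.1, 3.15 and 2.79 in MLX shRNA and 2.78, 2.47 and 2.27 in MLX-DN. No groups of Pold1 overlapped, whereas Prim1 overlapped between MLX-WT and NT shRNA and between MLX shRNA and MLX-DN. They differed by -1.11 (SE 0.0479) and -1.03 (SE 0.0434) with MLX-DN.

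Pole, for the leading strand polymerase epsilon, was at 3.86, 3.88 and 4.29 FPKM in GFP control, 3.47, 3.5 and 3.53 in NT shRNA, 2.47, 2.34 and 2.41 in MLX shRNA, 2.41, 2.32 and 2.36 in MLX-WT and 1.7, 1.71 and 1.79 in MLX-DN. Here MLX-WT and MLX shRNA overlapped, and MLX-DN was below both. Pola1, for the polymerase that extends primers, fell least of the 4 with MLX-DN (-0.55, SE 0.0424) and by a like amount with MLX shRNA (-0.51, SE 0.0424). It was at 6.58, 6.51 and 6.47 FPKM in GFP control, 6.11, 5.59 and 6.1 in NT shRNA, 5.0, 4.88 and 4.72 in MLX-WT, 3.72, 3.86 and 3.92 in MLX-DN and 4.04, 3.29 and 3.44 in MLX shRNA, and the last pair overlapped.

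The Okazaki fragment genes Fen1, a flap nuclease, and Lig1, the ligase that seals the fragments, both fell in the 3 comparisons. Lig1 was at 15, 14.1 and 15.5 FPKM in GFP control, 9.63, 9.47 and 10.2 in MLX-WT, 8.63, 9.35 and 9.3 in NT shRNA, 5.32, 4.81 and 4.6 in MLX-DN and 4.11, 4.39 and 4.34 in MLX shRNA. No groups of Lig1 overlapped, and its differences of -1.29 (SE 0.0427) with MLX-DN and -0.82 (SE 0.0427) with MLX shRNA were among the largest of the 39. Fen1 was at 15.8, 16.3 and 15.6 FPKM in GFP control, 12.2, 13 and 13 in MLX-WT, 12, 12.3 and 12.9 in NT shRNA, 9.72, 10.9 and 10.2 in MLX shRNA and 8.45, 8.09 and 7.65 in MLX-DN. MLX-WT and NT shRNA overlapped for Fen1, and its difference with MLX shRNA was -0.23 (SE 0.0392). Fen1 shares 78.8% of its exon bases with the antisense gene Gm10143, which was not among the genes tested.

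RPA coats single-stranded DNA at the fork, and the members hold the genes of 2 of its subunits. Rpa1 was at 37.8, 36.4 and 37.1 FPKM in GFP control, 31.9, 32 and 32.8 in MLX-WT, 24.8, 25.8 and 24.3 in NT shRNA, 19.3, 19.4 and 19.8 in MLX shRNA and 17.8, 17.9 and 17.7 in MLX-DN, with no overlap between any groups. Rpa2 was at 16.8, 16.9 and 17.2 FPKM in GFP control, 16.8, 17.6 and 15.8 in NT shRNA, 16, 15.9 and 16.8 in MLX-WT and 15.5, 15.3 and 15.3 in MLX shRNA, and it was lowest in MLX-DN, at 11, 12.8 and 12. The differences of Rpa1 and Rpa2 were -0.98 (SE 0.0243) and -0.45 (SE 0.0424) with MLX-DN.

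Of the nucleotide supply genes, all 5 fell in the 3 comparisons, with Rrm2 close to 0 in MLX-DN and MLX-WT as given above. Tk1, the S-phase thymidine kinase gene, was at 28.2, 28 and 28.6 FPKM in GFP control, 21.3, 20.1 and 20.8 in MLX-WT and 18.6, 16.5 and 16.7 in NT shRNA. It was at 7.13, 7.59 and 7.31 in MLX shRNA and 7.27, 8.29 and 6.47 in MLX-DN, and these overlapped. As mean ± SD (n = 3), Tk1 was 28.2 ± 0.309 FPKM in GFP control, 17.3 ± 1.16 in NT shRNA, 7.34 ± 0.911 in MLX-DN and 7.34 ± 0.234 in MLX shRNA. Its differences were -1.70 (SE 0.0554) with MLX-DN (limma adjusted p = 2.19e-13) and -1.04 (SE 0.0554) with MLX shRNA (adjusted p = 1.72e-10).

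Rrm1 and Rrm2 encode the subunits of ribonucleotide reductase, which makes deoxynucleotides. Rrm2, the most abundant member, was at 113, 112 and 111 FPKM in NT shRNA, 107, 102 and 105 in GFP control, 101, 100.5 and 101 in MLX-WT, 97.7, 98.3 and 100.3 in MLX-DN and 87.8, 83.6 and 83.7 in MLX shRNA. No groups of Rrm2 overlapped, though MLX-WT and MLX-DN were close. Rrm1 was at 52.8, 56.3 and 54.1 FPKM in GFP control, 44.7, 43 and 45 in MLX-WT, 43.3, 45.6 and 43.4 in NT shRNA, 35.7, 35.1 and 35.1 in MLX-DN and 29.7, 30.1 and 30 in MLX shRNA. With MLX-DN, Rrm1 differed by -0.60 (SE 0.0276), while with MLX shRNA both were lower, by -0.53 (SE 0.0276) and -0.39 (SE 0.0229) for Rrm1 and Rrm2. Dut, which removes dUTP, was at 18.9, 19.2 and 20.1 FPKM in GFP control, 17.1, 16.2 and 16.5 in MLX-WT, 13.7, 13 and 12 in NT shRNA, 8.92, 9.77 and 10.1 in MLX shRNA and 8.9, 9.41 and 8.89 in MLX-DN, with the last pair overlapping. Tyms, for thymidylate synthase, was at 8.26, 7.41 and 8.07 FPKM in GFP control, 7.55, 7.73 and 7.38 in NT shRNA, 5.61, 5.41 and 5.61 in MLX-WT, 5.34, 5.22 and 5.17 in MLX shRNA and 4.57, 4.68 and 4.5 in MLX-DN. Only the 2 controls overlapped for Tyms, which has a processed pseudogene, Tyms-ps, that could share its reads.

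Chaf1a and Chaf1b encode subunits of the factor that places histones on new DNA, and Uhrf1 encodes the protein that brings maintenance methylation to it. All 3 fell in the 3 comparisons. Uhrf1 was at 18.1, 18.6 and 18.8 FPKM in GFP control, 11.1, 11.1 and 10.7 in NT shRNA, 9.05, 9.55 and 9.41 in MLX-WT, 6.51, 7.02 and 6.53 in MLX shRNA and 5.01, 5.27 and 4.58 in MLX-DN, and no groups overlapped. Its differences were -1.56 (SE 0.0362) with MLX-DN, -0.85 (SE 0.0362) with MLX-WT and -0.58 (SE 0.0362) with MLX shRNA. Chaf1a, with the same order and no overlap, was at 11.7, 11.1 and 11.3 FPKM in GFP control, 8.35, 8.8 and 8.76 in NT shRNA, 7.81, 7.77 and 8.33 in MLX-WT, 5.56, 6.52 and 5.86 in MLX shRNA and 4.56, 5.06 and 4.39 in MLX-DN. It shares 33.6% of its exon bases with Ubxn6 on the other strand. Chaf1b was at 6.3, 5.83 and 5.62 FPKM in GFP control, 4.58, 4.62 and 5.06 in NT shRNA and 3.78, 3.47 and 3.78 in MLX-WT, and at 1.88, 2.03 and 1.93 in MLX shRNA and 1.75, 1.92 and 1.87 in MLX-DN, which overlapped far below the rest.

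The G1/S drivers were 2 cyclin E genes and E2f1, and Ccne1 and E2f1 fell in the 3 comparisons. Ccne1 was at 8.3, 8.72 and 8.24 FPKM in GFP control, 7.64, 6.98 and 7.54 in NT shRNA, 6.46, 6.18 and 6.53 in MLX-WT, 4.63, 4.35 and 4.73 in MLX shRNA and 3.92, 4.03 and 3.74 in MLX-DN, with no overlap. E2f1, the activator of many S-phase genes, was at 7.8, 7.76 and 7.75 FPKM in GFP control, 7.35, 8.3 and 7.65 in NT shRNA, 5.49, 5.35 and 5.31 in MLX-WT, 4.55, 4.7 and 5.24 in MLX shRNA and 4.39, 4.08 and 4.29 in MLX-DN. Only its controls overlapped. Ccne2 was the member not called with MLX-DN. It was at 8.42, 8.44 and 8.75 FPKM in NT shRNA, above all other libraries, against 6.71, 6.74 and 6.62 in GFP control, 6.69, 6.89 and 7.33 in MLX-WT, 6.7, 5.11 and 6.57 in MLX shRNA and 5.69, 5.69 and 6.64 in MLX-DN. Its only lower call among the 3 comparisons, -0.38 (SE 0.0629) with MLX shRNA (adjusted p = 6.33e-05), is against that high control. With MLX-DN, 2 of 3 libraries were below GFP control, and without MLX-DN replicate 3 the difference was -0.18 and was called. Ccne2 shares 10.5% of its exon bases with Ints8 on the other strand.

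MLX-DN and MLX shRNA differed in how far the genes fell. The log2 difference with MLX shRNA against NT shRNA was significantly less negative than that with MLX-DN against GFP control for 31 of 39 members and more negative for 3, where 42.8% and 32% of tested genes differed in these directions. The median difference between the effects was 0.37, against 0.06 over all tested genes. It was widest for Uhrf1 (0.98, SE 0.0512), Cdt1 (0.94, SE 0.0703) and Mcm2 (0.82, SE 0.0418). The 3 genes that fell further with MLX shRNA were Pcna (-0.24, SE 0.0343), Rrm2 (-0.31, SE 0.0324) and Ccne2 (-0.26, SE 0.0889). Within the helicase ring the difference was 0.82 for Mcm2, 0.71 for Mcm5, 0.64 for Mcm7 and 0.54 for Mcm3, but 0.21 for Mcm4 and 0.14 for Mcm6. Not called were Gins1 (0.12), Rfc4 (-0.10), Pola1 (0.04), Rrm1 (0.07) and E2f1 (0.13), and each of these but Pola1 was called under 1 or more alternatives. E2f1 was called with either other offset, with the filter at 5 FPKM and without the variance trend. It was also called when any of 4 of the 12 libraries was left out on its own. Gins1, Rfc4 and Rrm1 were called when 1 particular library was left out. Rfc4 was also called with median centering, at -0.13 (limma adjusted p = 0.0331), a further fall with MLX shRNA. Orc1, counted among the 31 with an adjusted p of 0.0432, lost its call with no filter, with median centering, with quantile normalization and when any of 8 of the 12 libraries was left out on its own (adjusted p = 0.053 to 0.115). For Pola1 the 95% interval was -0.09 to 0.17, and the value turned to -0.02 without MLX shRNA replicate 1.

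The controls are part of this contrast, because NT shRNA was itself below GFP control. With MLX shRNA set directly against MLX-DN, 22 members were higher and 7 lower, where 44.1% and 27.1% of tested genes were, and the median difference was 0.12. The 7 lower genes were Mcm4, Mcm6, Lig1, Pcna, Rfc4, Rrm1 and Rrm2.

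**Figure D4:**
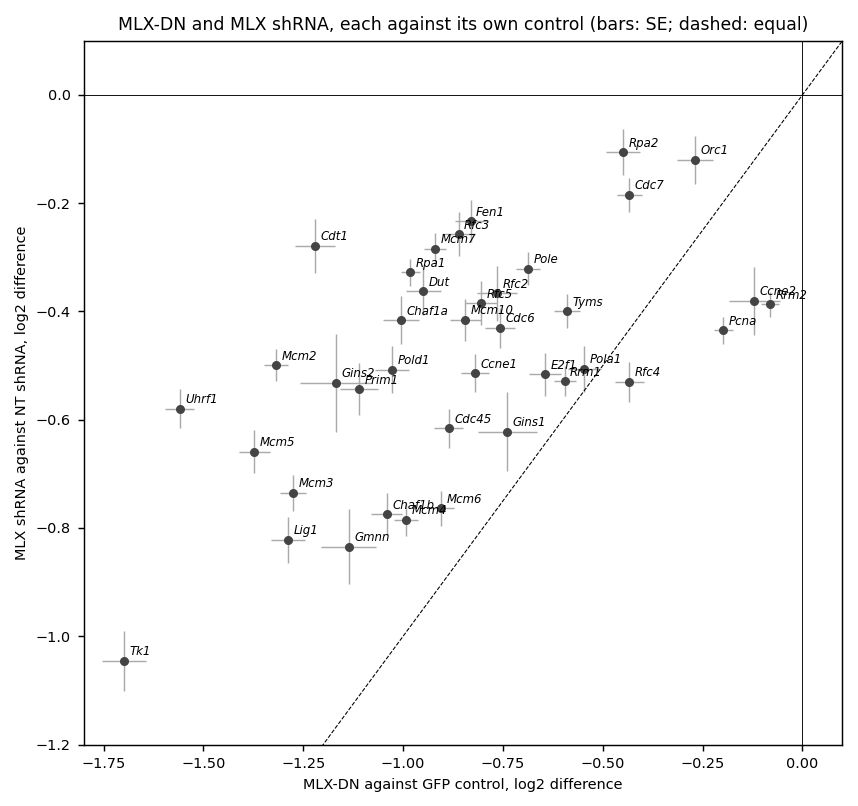
Log2 difference of each of the 39 genes with MLX-DN against GFP control (horizontal axis) and with MLX shRNA against NT shRNA (vertical axis), with SE bars and a dashed line of equal values. Points left of the dashed line fell further with MLX-DN, and Tk1 lies lowest on both axes at -1.70 and -1.04.

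The 2 controls, which both keep the cells' own MLX, were not alike in these genes. In NT shRNA against GFP control 30 members were lower and 2 higher, where 37.1% and 37% of tested genes were, and the median log2 difference was -0.28 against 0.00 over all tested genes. Uhrf1 (-0.66, SE 0.0362), Tk1 (-0.65, SE 0.0554) and Lig1 (-0.60, SE 0.0427) were the lowest. The genes that rose were Ccne2 (0.28, SE 0.0629) and Rrm2 (0.09, SE 0.0229), and the call of Rrm2 was lost with quantile normalization. Pola1 was called at -0.10 (adjusted p = 0.038), a call that several alternatives ended, among them quantile normalization and leaving out any GFP control library. The 7 members not called were Gins1, Orc1, Cdc7, Pcna, Rpa2, Tyms and E2f1. What the controls differ in beyond the construct is not given, and hairpin, vector and culture cannot be told apart.

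Each overexpression group was also set against NT shRNA. In MLX-DN against NT shRNA, 39 of 39 members were lower, where 48.7% of tested genes were lower and 21% higher, with a median of -0.60 against -0.08 over all tested genes. Tk1 (-1.05, SE 0.0554) and Mcm3 (-1.0, SE 0.033) were the lowest. In MLX-WT against NT shRNA, 25 members were lower and 3 higher, where 44.3% and 25.7% of tested genes were, and the median was -0.16 against -0.06 over all tested genes. With median centering these counts were 22 lower and 8 higher, and with quantile normalization 23 lower and 7 higher. E2f1 (-0.40, SE 0.0399) and Tyms (-0.34, SE 0.032) were the lowest, and the 3 higher genes were Rpa1 (0.34, SE 0.0243), Dut (0.32, SE 0.044) and Tk1 (0.24, SE 0.0554). GFP control, NT shRNA and the groups compared with them share libraries, so these comparisons are not independent of each other.

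MLX-DN was lower than MLX-WT for 37 of 39 members and higher for 0, where 38.9% of tested genes were lower and 33.2% higher. The median log2 difference was -0.42, against -0.02 over all tested genes. Tk1 (-1.29, SE 0.0554) and Gmnn (-1.02, SE 0.0696) were below -1, followed by Rpa1 (-0.79, SE 0.0243), Cdt1 (-0.78, SE 0.0497) and Mcm3 (-0.78, SE 0.033). In mean FPKM, Cdt1 (2.85 in MLX-DN, 6.34 in MLX-WT) and Cdc6 (0.887 and 1.84) were also more than 2-fold lower. Orc1 (-0.08) and Rrm2 (-0.03) did not pass (adjusted p = 0.104 and 0.301), and the smallest calls, Pcna (-0.09) and Ccne2 (-0.17), were lost with quantile normalization. Counts of 0 members called higher in any of these comparisons were also 0 at an unadjusted p under 0.05 by limma.

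Other genes of DNA replication moved in both directions. Of 50 further replication genes, 36 fell and 11 rose with MLX-DN against GFP control (all tested genes: 48.8% and 32.6%), with a median of -0.32. Top2a (-0.95), a topoisomerase gene, Timeless (-1.19), for a fork protection protein, and Dnmt1 (-1.05), the maintenance methyltransferase gene, fell with the lowest p. Orc6 (1.10), Rnaseh2a (0.93), a subunit of the nuclease that removes ribonucleotides from DNA, and Orc2 (0.42) rose, whereas Orc1 fell. The rises of Orc6 and Rnaseh2a depended on the control. Their means were 33.3 and 24.9 FPKM in MLX-DN, against 14.5 and 12.1 in GFP control and 42.7 and 34 in NT shRNA. Orc2 was above both controls, at a mean of 23.2 FPKM against 16.8 in GFP control and 21.1 in NT shRNA. With MLX shRNA against NT shRNA 33 of the 50 fell and 4 rose (all tested genes: 39.3% and 30.8%), with a median of -0.18. Top2a (-0.80), the histone chaperone gene Asf1b (-0.87) and the deoxycytidine kinase gene Dck (-0.52) fell, and Rrm2b (0.25), the reductase subunit outside S phase, Dctpp1 (0.23) and Asf1a (0.15) rose. Asf1b was at 15.5 to 16.7 FPKM in MLX shRNA, below 29.3 to 32.4 in NT shRNA but above 12.5 to 13.5 in GFP control. The other genes named for MLX shRNA kept their direction against GFP control.

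With MLX-WT against GFP control 28 of the 50 fell and 9 rose (all tested genes: 42.7% and 27.6%), with a median of -0.14. Chtf18 (-0.58), Dnmt1 (-0.52) and Pole2 (-0.62) fell, and Orc6 (0.72), Asf1b (0.85) and Rnaseh2a (0.70) rose. In NT shRNA against GFP control 18 fell and 14 rose, no more often than among all tested genes (37.1% and 37%). Orc6 (1.44), Rnaseh2a (1.35) and Asf1b (1.14) led the rises. In MLX-WT these genes lay between the controls, with Orc6 and Rnaseh2a at means of 25.2 and 20.9 FPKM and Asf1b at 24.6 to 25.3. In MLX-WT against NT shRNA 26 fell and 6 rose (16 and 9 with median centering), in MLX-DN against NT shRNA 40 fell and 5 rose, and in MLX-DN against MLX-WT 33 fell and 8 rose. Of all tested genes, 44.3%, 48.7% and 38.9% fell and 25.7%, 21% and 33.2% rose in these comparisons, in this order. The effects of MLX shRNA and MLX-DN differed upward for 22 of the 50 and downward for 11 (17 and 13 with median centering). Among all tested genes 42.8% differed upward, about the same share, and 32% downward.

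The G1/S regulators, a list of E2F and retinoblastoma family genes and S-phase kinase genes, were mixed against the groups' own controls. Of 21, 12 fell and 5 rose with MLX-DN against GFP control (all tested genes: 48.8% and 32.6%), with a median of -0.11 that turned to 0.01 with quantile normalization. E2f7 (-1.23), Fbxo5 (-0.95) and Ccna2 (-0.60) fell, while E2f2 (0.74), Rbl2 (0.64), for the retinoblastoma relative p130, and Tfdp2 (0.27) rose. E2f1 and E2f2, both activating E2F genes, therefore moved in opposite directions against this control. E2f2 was at 13.6 to 14.1 FPKM in GFP control, 37 to 38.4 in NT shRNA and 24 to 24.9 in MLX-DN. Against NT shRNA, E2f1 and E2f2 were thus both lower in MLX-DN. Rbl2 also lay between the controls, at 11 to 11.1 FPKM in GFP control, 21.3 to 22.1 in NT shRNA and 18 to 18.4 in MLX-DN. Tfdp2, at 5.04 to 5.49 FPKM in MLX-DN, was above both controls. With MLX shRNA 11 of 21 fell and 5 rose (11 and 8 with median centering), led by Cdk2 (-0.82), Ccna2 (-0.68) and E2f7 (-0.61) downward and E2f6 (0.36), Tfdp2 (0.20) and Cdc25a (0.17) upward. With MLX-WT 12 fell and 3 rose (10 and 5 with median centering). Of all tested genes, 39.3% fell and 30.8% rose with MLX shRNA, and 42.7% fell and 27.6% rose with MLX-WT. Against NT shRNA, 16 of the 21 were lower and 2 higher in MLX-DN (all tested genes: 48.7% and 21%). In MLX-WT 14 were lower and 3 higher than in NT shRNA (44.3% and 25.7%). NT shRNA against GFP control gave 7 lower and 7 higher (37.1% and 37%). MLX-DN against MLX-WT gave 12 lower and 5 higher (38.9% and 33.2%).

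Mitosis genes fell with the replication genes in several comparisons and went the other way in others. All 20 fell with MLX-DN (median -0.70), with MLX shRNA (median -0.57) and in NT shRNA against GFP control (median -0.36), and 16 fell and 3 rose with MLX-WT against GFP control (11 and 3 with median centering). Of all tested genes, 48.8%, 39.3%, 37.1% and 42.7% fell in these comparisons, in this order, and 27.6% rose in the last. In MLX-WT against NT shRNA 17 of 20 were higher and 0 lower (all tested genes: 25.7% and 44.3%). The mitosis median was 0.20, where the replication genes had a median of -0.16. Ccnb1 (0.40), Prc1 (0.38) and Cdk1 (0.27) were the examples of lowest p. With median centering and with quantile normalization 19 of 20 mitosis genes were higher there. In MLX shRNA set directly against MLX-DN, 13 mitosis genes were lower and 2 higher (median -0.28), whereas 22 of the 39 replication genes were higher and 7 lower (median 0.12). Of all tested genes, 27.1% were lower and 44.1% higher.

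**Figure D5:**
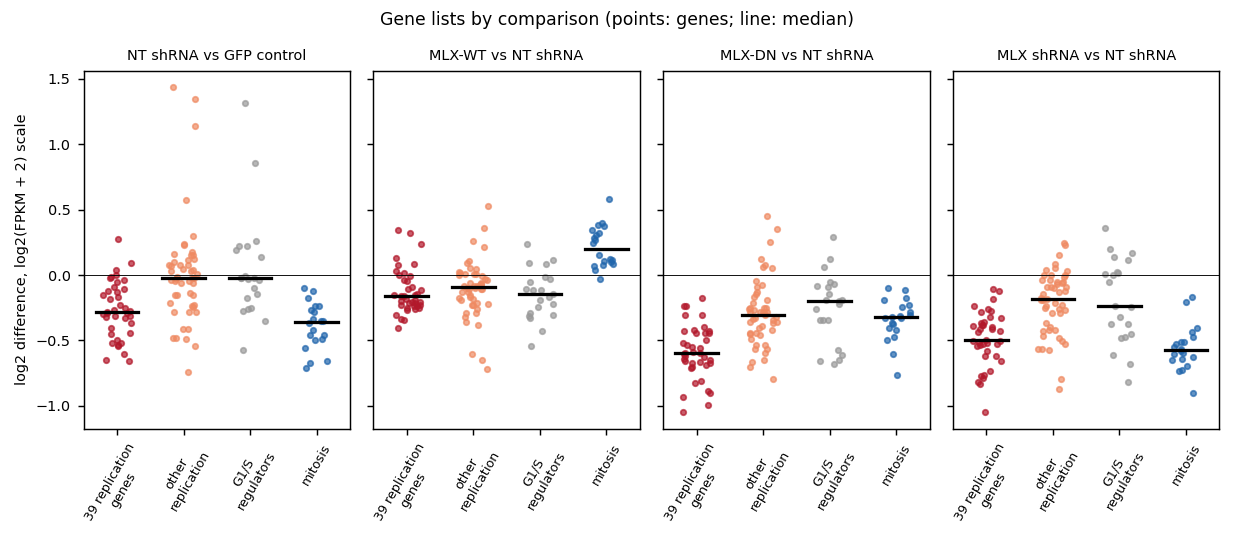
Log2 differences on the log2(FPKM + 2) scale of the 39 genes, 50 other replication genes, 21 G1/S regulators and 20 mitosis genes (points, with the list median as a line) in 4 comparisons that each use NT shRNA. In MLX-WT against NT shRNA the mitosis median is 0.20 and that of the 39 genes -0.16, while both are below 0 in the other panels.

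Markers of other cell types were followed beside the replication genes. Of 4 fibroblast markers, Thy1 was under 1 FPKM in every library, and the list's summed level was 450 to 459 FPKM in GFP control, 218 to 235 in NT shRNA, 157 to 159 in MLX-WT, 48.1 to 49.6 in MLX shRNA and 43.8 to 48.7 in MLX-DN. This is the order of group means that 19 of the 39 replication genes had. Most of the sum was Col1a1, at a mean of 443 FPKM in GFP control and 41.9 in MLX-DN. Dcn was highest in NT shRNA at a mean of 17 FPKM and lowest in MLX shRNA at 0.445, and Pdgfra was highest in MLX-WT at 2.87. The part of these markers in the result was not tested. The summed level of 19 myotube markers was 21065 to 21501 in GFP control, 14279 to 14655 in NT shRNA, 23639 to 23941 in MLX-WT, 19937 to 21521 in MLX shRNA and 19174 to 19563 in MLX-DN, with NT shRNA the lowest. Mylpf was its largest part in every library, at 3789 to 7408 FPKM. Of the 19, 6 rose and 11 fell with MLX-DN against GFP control (all tested genes: 32.6% and 48.8%). With MLX shRNA against NT shRNA 13 rose and 3 fell (30.8% and 39.3%). Myog was lowest in GFP control at 442 to 449 FPKM, while Actn2 was highest there at 58.1 to 60.7. The sum of 10 myoblast markers was 1645 to 1945 FPKM over all libraries, most of it Des, and single markers moved apart from it. The mean of Myf5 in MLX-DN was 36.9% of GFP control and that of Pax7 445%, and in MLX shRNA the mean of Msc was 622% and that of Chrd 40.8% of NT shRNA. Of 5 macrophage markers, Emr1 was at 0 and Csf1r and Lyz2 under 1 FPKM everywhere, while Ptprc was at 4.39 to 4.74 FPKM in MLX-DN and at most 0.0099 elsewhere. Cd68 was at 0.777 to 2.06 FPKM over all libraries, with 0.777 to 0.933 in MLX-DN and 0.784 to 1.27 in GFP control. All 4 endothelial and all 4 epithelial markers were under 1 FPKM in every library, as were 2 of 3 neural markers.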

How the data were processed

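Messenger RNA was measured in 15 libraries, 3 in each of 5 groups, with group and replicate number read from the sample titles. Per the labels' protocols, RNA was poly(A) enriched and the library kit was stranded. CASAVA, TopHat2 and STAR are named in the submitters' processing notes, as is the build mm9, without roles or versions. The sources used here do not say whether reads were counted by strand. The authors deposited log2 FPKM values in 1 table, and its lowest value of 1 in every library was read as log2(FPKM + 2). The table gives no counts, so no count model was used. Depth came from the spacing of low FPKM values, of which 60.7% to 63.6% fell within 0.05 of a whole read (10% if evenly spread). Reads per member were derived for 27 members with 1 transcript length.

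Tests were made with limma (version 3.58.1, R 4.3.3) on the log2 values as deposited, fitting 1 mean per group with a trend over expression. They were two-sided, and Benjamini-Hochberg adjustment ran over the 11945 genes that reached 1 FPKM in 3 or more libraries. Alternatives were offsets of 1 and 0.1, no filter, a filter at 5 FPKM, median centering, quantile normalization, no trend, only the groups compared, a replicate block, the other control, and leaving out each library. MLX shRNA directly against MLX-DN was added after seeing the data. Values by library are given for all 39 members, where the rule for named genes asked for the called member with the largest and with the smallest difference of each role in each comparison and for those called against the majority. Genes named from the lists of other replication genes, G1/S regulators and mitosis genes are the 3 of lowest p in the direction given. They are not named for every comparison and direction, and the plan for mitosis genes was counts and medians only. The members and lists were chosen with earlier results of these data known. Promoters came from RefSeq (GRCm38.p6). Exon overlaps of at least 10% with a gene on the other strand were found for 9 members, 7 of them with a tested gene, and their values are uncertain to that extent.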

Additional observations from a re-analysis of the deposited data

Results flagged for a closer look

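The log2 differences of MLX shRNA (against NT shRNA) and MLX-DN (against GFP control) were compared as a contrast in the limma fit. They differed for 31 members upward, meaning a smaller fall with MLX shRNA, and for 3 downward. Of all tested genes, 42.8% differed upward and 32% downward. The downward differences were -0.24 for Pcna, -0.31 for Rrm2 and -0.26 for Ccne2. NT shRNA was itself below GFP control for most members. With MLX shRNA set directly against MLX-DN, 22 members were higher and 7 lower.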

How the results depend on the processing

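Counts of members called lower stayed within 1.5 times of their reported values under every alternative in all 7 comparisons of 2 groups. The counts that moved further were small ones. With NT shRNA in place of GFP control, 3 members were higher in MLX-WT. With quantile normalization 1 member was higher in NT shRNA against GFP control, in place of 2. In MLX-WT against NT shRNA, 8 were higher with median centering and 7 with quantile normalization, in place of 3. With MLX shRNA set directly against MLX-DN, 7 members were lower in place of 3, and this alternative was chosen after seeing the data. Of the values with a log2 difference given above, those that changed sign were Rpa2 in MLX-WT against GFP control (0.00968) and Rrm2 with MLX-WT (0.0141) and MLX-DN (0.00922) against GFP control, all with median centering, and Pola1 in the difference of effects without MLX shRNA replicate 1 (-0.0167 to 0.0786 over the libraries left out). Uncalled members also changed sign in NT shRNA against GFP control (Cdc7, E2f1, Orc1 and Rpa2) and in MLX-WT against NT shRNA (Cdc45, Mcm10, Prim1, Rpa2 and Rrm1, up to 0.0688 for Cdc45 with quantile normalization). The cause was not tested. Same-numbered libraries had residual correlations of -0.0933 to 0.182 over 30 pairs, not all above 0.1, so the numbers were not taken as a pairing. As a hint from the data, 10 of 15 libraries were closest to their own number. With a replicate block the counts lower were 36, 38 and 39 with MLX-WT, MLX-DN and MLX shRNA against their own controls, 37 for MLX-DN against MLX-WT, 30 between the controls, 26 for MLX-WT and 39 for MLX-DN against NT shRNA, and 31 members still differed upward between the effects of MLX shRNA and MLX-DN. The offset moves sizes more than calls: with offsets of 1 and 0.1 the median for MLX-DN was -0.95 and -1.09. Low members such as Orc1, Cdc6 and Mcm10 are the most affected, since 2 was added to every FPKM.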
